A study of Mus musculus and Homo sapiens with 4 samples.

Results

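Cytosolic ribosomal protein genes were examined in RNA-seq of VCaP and VCaP ERα cells. The genes were taken from the gene symbols alone: RPL or RPS followed by digits and at most 1 letter A, L or X, together with RPLP0, RPLP1, RPLP2 and RPSA. S6 kinase genes and 5 matching entries on chromosome X were left out. The rule found 80 autosomal entries with 76 distinct symbols among 25932 entries, 46 of the large subunit and 34 of the small subunit, spread over 20 chromosomes. VCaP is a line of prostate cancer cells, used here at passages 5 to 6. VCaP ERα is the same line made to stably overexpress oestrogen receptor α, used at passages 4 to 5. Both were grown in DMEM with fetal bovine serum, and their RNA was depleted of ribosomal RNA and sequenced with strand information; the labels also call these libraries poly-A-. Each condition was a single library, so the values below have no replicate error, no test was possible, and every difference compares 2 libraries. Values are RPKM, read counts scaled for gene length and for library size, and ratios are log2 of (VCaP ERα + 1 RPKM) over (VCaP + 1 RPKM).

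Cytosolic ribosomes consist of a large (60S) and a small (40S) subunit, each a scaffold of ribosomal RNA covered by proteins, most of which are needed in equal numbers. The genes of these proteins are scattered over the genome and are among the most strongly transcribed in dividing cells. Their mRNAs start with a terminal oligopyrimidine (TOP) tract, shared with elongation factors and a few other translation genes, through which growth signals control their translation together. Introns of many of these genes contain small nucleolar RNAs (snoRNAs) that guide the modification of ribosomal RNA.

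The labels were first checked against marker genes. ESR1, which encodes ERα, was at 15.7 RPKM in VCaP against 209 in VCaP ERα, so that its log2 ratio was 3.65. The 6 prostate luminal markers reported (KLK2, KLK3, ACPP, TMPRSS2, SLC45A3 and HOXB13) were between 0.0264 and 8.18 RPKM in the library labelled VCaP and summed to 12.4 RPKM there, against 1609 RPKM in VCaP ERα. The 4 luminal breast markers (TFF1, GATA3, TRPS1 and KRT19) summed to 3342 RPKM in the library labelled VCaP and to 13.1 RPKM in VCaP ERα. The library labelled VCaP thus went against its prostate label, and every ratio below is read against that library; what it adds to a ribosomal protein ratio was not tested and cannot be told apart from ERα expression. The 9754 entries that reached 1 RPKM or more in VCaP and in VCaP ERα had a median log2 ratio of -0.59, and ratios are also given after centring on this value. The sum of all RPKM values was 267630 in VCaP and 196948 in VCaP ERα, and 8757 and 3607 entries, respectively, were listed at 0.

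The ribosomal protein genes took up a larger share of the RPKM sum in VCaP ERα than in VCaP. Their entries summed to 18667 RPKM in VCaP against 26736 in VCaP ERα, 6.97% and 13.6% of all RPKM. In bulk RNA, a change in the mix of cells and a change in RNA per cell cannot be told apart. The large subunit accounted for 4.69% and 8.42%, and the small subunit for 2.28% and 5.15%. By contrast, the 678 other entries that averaged at least 50 RPKM over both libraries held 43.8% in VCaP and 43.4% in VCaP ERα. Among the 100 entries of highest RPKM, 20 were ribosomal protein entries in VCaP and 36 in VCaP ERα. At least 1000 RPKM was reached by 2 of them in VCaP and by 9 in VCaP ERα.

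The individual levels covered a wide range in each library. RPL18, a large-subunit protein, was highest in VCaP with 1300 RPKM and was at 1149 RPKM in VCaP ERα. RPL29, also of the large subunit, followed with 1207 and 1456 RPKM. RPL30, another large-subunit protein, was at 931 and 1060 RPKM, and RPL26 was at 893 and 1150 RPKM. In VCaP ERα the highest level belonged to RPL27, at 438 RPKM in VCaP, compared with 1641 in VCaP ERα. RPL29 and RPLP0 were among the 5 highest in both libraries. Among the 73 members that reached 1 RPKM in each library, log2 levels correlated with Pearson's r = 0.91 and Spearman's rho = 0.88, a description across genes that share 1 library on each axis. The SD of the log2 level across these entries was 2.02 in VCaP and 1.91 in VCaP ERα, a spread of similar size.

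**Figure D1:**
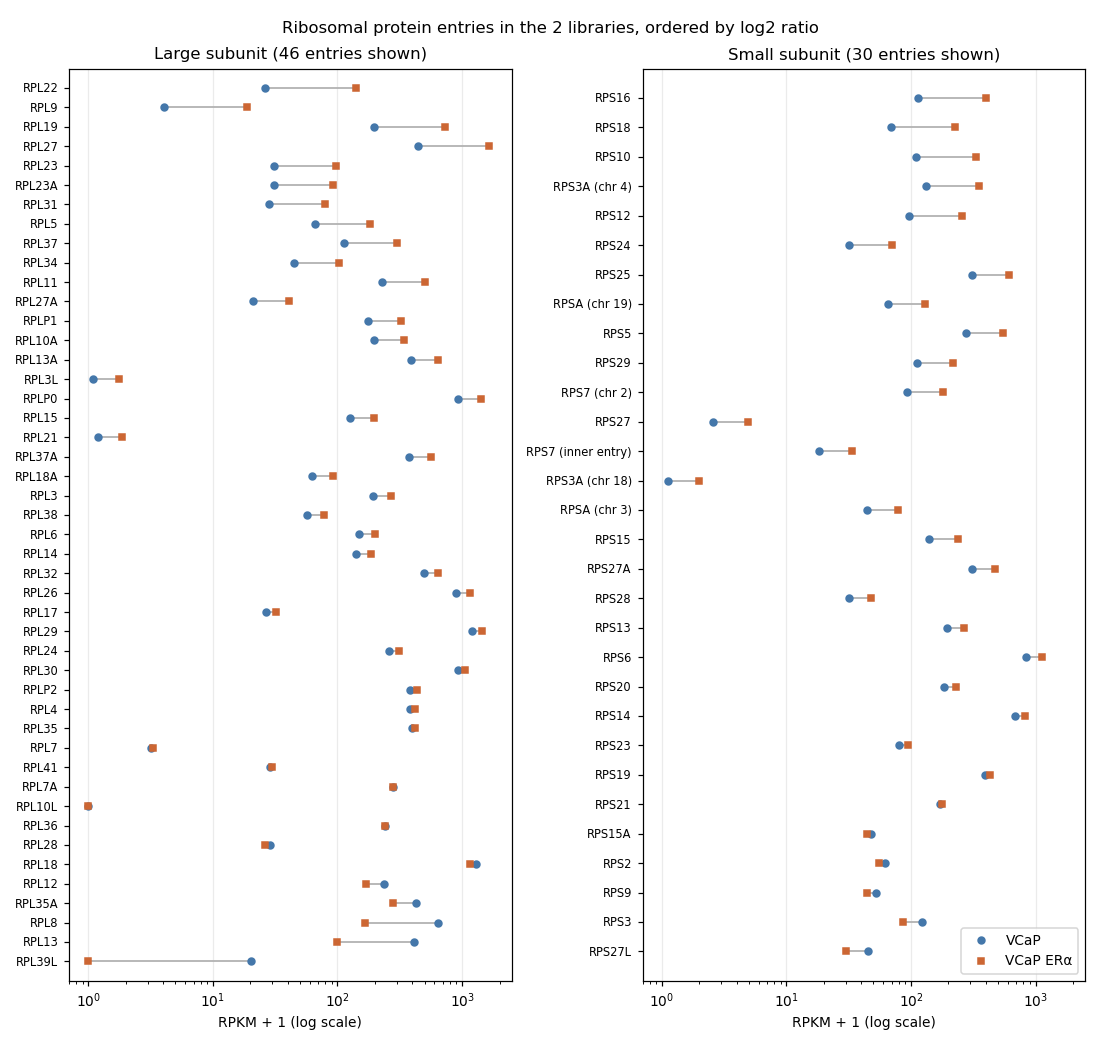
RPKM + 1 on a log axis for the ribosomal protein entries shown, with a circle for VCaP and a square for VCaP ERα (1 library each), large subunit on the left and small subunit on the right, in order of log2 ratio. The square lies to the right of the circle for 37 of 46 large-subunit and 25 of 30 small-subunit entries shown; RPL13, RPL8 and RPL39L at the bottom left lie far the other way.

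Of the 80 entries, 64 had a higher RPKM in VCaP ERα, against 46.6% of all entries, 13 a lower one and 3 were listed at 0 in each library. Their median log2 ratio was 0.56, with quartiles at 0.09 and 0.98, and the median over all 25932 entries was 0. The log2 ratio was above 1 in 19 entries, against 9.16% of all entries, and below -1 in 3, against 18.5% of all entries. At the log2 threshold of 2 used in the study, 2 ribosomal protein entries were above (RPL22 and RPL9), where the share over all entries was 2.27%. A ratio below -2 was found in 2 (RPL13 and RPL39L), where that share was 6.56%. These counts depended on the scaling. After quantile normalization 69 of the 80 were above 0, 34 above 1 and 8 above 2, where all entries had 12.7% above 1 and 3.87% above 2. After centring 76 were above 0, 46 above 1 and 12 above 2, where all entries had 24.2% above 1 and 4.77% above 2. The small-subunit entries had a median of 0.80, with 8 above 1 and 0 below -1, and the large-subunit entries a median of 0.45, with 11 above 1 and 3 below -1. Median RPKM was 102 in VCaP and 198 in VCaP ERα for the small subunit, and 183 and 196 for the large subunit.

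Since most of these genes are abundant, they were also set against entries of similar abundance. An average of at least 50 RPKM was reached by 60 ribosomal protein entries and 738 entries in all. Of the 60, 52 were higher in VCaP ERα, against 37.5% of the 738 entries. A log2 ratio above 1 was found in 17 of the 60, against 15.9% of the 738, and a ratio below -1 in 2 of the 60 (RPL13 and RPL8), against 36.7% of the 738. Their median log2 ratio was 0.60 (quartiles 0.22 and 1.15), a median fold of 1.52, and that of the 678 other abundant entries was -0.58 (quartiles -1.81 and 0.40), a median fold of 0.661. The ribosomal protein ratios were also closer to one another, with an SD of 0.81 against 2.52. Some of the other entries passed the level filter through 1 library alone, which can widen their SD. Over the 651 of them that reached 1 RPKM in each library, as all 60 members did, the SD was 2.09. After centring, 37 of the 60 were above 1, against 27.9% of the abundant entries, and 2 were below -1, against 26.2%.

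**Figure D2:**
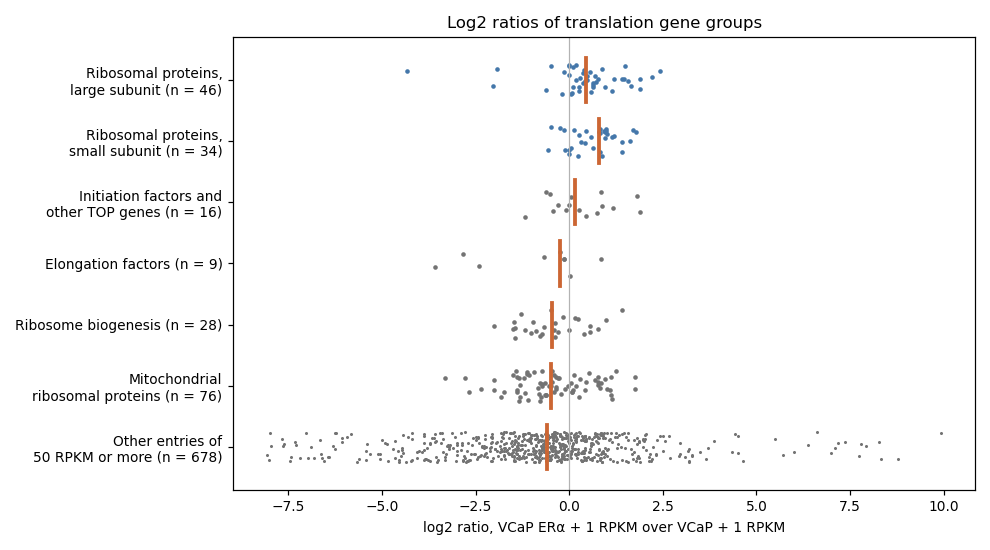
Log2 ratio (VCaP ERα + 1 RPKM over VCaP + 1 RPKM, 1 library each) of every entry of 6 translation gene groups and of the other entries averaging at least 50 RPKM. Each point is an entry and the vertical bar is the group median, which was 0.45 for the large subunit, 0.80 for the small subunit and -0.58 for the other abundant entries.

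The acidic stalk of the large subunit, to which translation factors bind, is built on RPLP0 with RPLP1 and RPLP2. RPLP0 was at 919 RPKM in VCaP against 1430 in VCaP ERα (log2 ratio 0.64). RPLP1 was at 174 and 320 RPKM (log2 ratio 0.88). RPLP2 was at 381 and 432 RPKM (log2 ratio 0.18). All 3 were higher in VCaP ERα, and RPLP2 remained well below RPLP0 in both libraries.

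With the pseudocount of 1, the largest ratio among the members belonged to RPL22 (chr1:6167667-6182266, coordinates as deposited, human build hg18), a large-subunit protein that is dispensable for protein synthesis in many cells. It was at 25.2 RPKM in VCaP against 139 in VCaP ERα (log2 ratio 2.42), above the ratios of all 20 expressed entries around it. Its paralog RPL22L1, which stands outside the symbol rule, was at 14.2 and 10.6 RPKM (log2 ratio -0.39), so the paralogs lay on opposite sides of 0, although RPL22L1 turned to 0.20 after centring and 0.35 after quantile normalization. The next ratio was that of RPL9 (chr4:39132140-39136963), with 3.06 RPKM in VCaP, compared with 17.8 in VCaP ERα (log2 ratio 2.21). With a pseudocount of 0.1 the order turned, and without a pseudocount the ratio of RPKM values was 5.82 for RPL9 and 5.53 for RPL22. RPL9 was a low entry beside its subunit, whose median was 183 and 196 RPKM.

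Several high ratios lay on chromosome 17. RPL19 (chr17:34610062-34614506) was at 195 RPKM in VCaP against 732 in VCaP ERα, a log2 ratio of 1.90. RPL27 (chr17:38403972-38408497) had the same log2 ratio of 1.90, with the levels given above. RPL23 (chr17:34259847-34263579) was at 30.0 and 97.1 RPKM, a log2 ratio of 1.66. All 3 encode large-subunit proteins, and RPL23 is also known to bind MDM2, the ubiquitin ligase of p53. The 6 ribosomal protein entries on this chromosome had a median log2 ratio of 1.62, and 4 of them were above 1. RPL5 and RPL11, also large-subunit proteins known for binding MDM2, were picked for that role after their values had been seen. RPL5 was at 65.0 and 182 RPKM (log2 ratio 1.47), and RPL11 was at 227 and 500 RPKM (log2 ratio 1.14).

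A pair of abundant large-subunit genes went the opposite way. RPL13 (chr16:88154591-88157349) was at 408 RPKM in VCaP against 98.7 in VCaP ERα, a log2 ratio of -2.04. RPL8 (chr8:145985958-145988609) was at 637 and 167 RPKM, a log2 ratio of -1.93. Both remained below -1 after centring on the median of expressed entries and after quantile normalization. Both genes lie near a chromosome end among entries that were low in VCaP ERα as well. Of the 14 expressed entries around RPL13, 12 had a log2 ratio below -1 and their median was -3.09, so RPL13 lay 1.05 above its surroundings. Of the 17 around RPL8, 12 were below -1 and their median was -1.38, so RPL8 lay 0.54 below its surroundings, with 2 of the 17 lower than RPL8.

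The other large-subunit genes with low ratios were closer to 0. RPL35A was at 424 RPKM in VCaP, compared with 278 in VCaP ERα (log2 ratio -0.60). RPL12 was at 234 and 168 RPKM (log2 ratio -0.47). RPL18, the highest entry of VCaP, had a log2 ratio of -0.18. RPL35A stayed just below 0 after centring, whereas RPL12 and RPL18 turned to above 0. All 3 stayed below 0 after quantile normalization.

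Paralogs with restricted expression were read beside their parents. RPL39L, an RPL39 paralog known for its expression in testis and in some tumour cells, lies at chr3:188321435-188339957. It was at 19.2 RPKM in VCaP and was listed at 0 in VCaP ERα, so no fold is given. All 20 of its expressed neighbours had higher ratios. Neighbours had to reach 1 RPKM in each library, so entries listed at 0 in VCaP ERα, as RPL39L was, were left out. The filter thus favoured that outcome. RPL39, the parent of RPL39L, lies on chromosome X and was not analysed here. RPL3L, a paralog of striated muscle, was at 0.0952 and 0.762 RPKM, far below its parent RPL3 at 192 and 269 RPKM (log2 ratio 0.48). RPL10L, a paralog of testis, was listed at 0 in both libraries.

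In the small subunit the highest ratios were those of RPS16, RPS18 and RPS10. RPS16 was at 114 RPKM in VCaP against 397 in VCaP ERα (log2 ratio 1.79). RPS18 was at 68.2 and 226 RPKM (log2 ratio 1.71). RPS10 was at 109 and 334 RPKM (log2 ratio 1.61). RPS18 and RPS10 lie on chromosome 6, whose 4 ribosomal protein entries had a median log2 ratio of 1.51. Of these 4, 3 were above 1, against 9.16% of all entries. RPS16 lies on chromosome 19, where 1 of 13 entries was above 1 and the median was 0.57.

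RPS6, the substrate of the S6 kinases, was at 836 RPKM in VCaP against 1117 in VCaP ERα (log2 ratio 0.42). RPS27A, which is made as a fusion with ubiquitin, was at 307 and 475 RPKM (log2 ratio 0.63). RPSA, the laminin receptor protein of the small subunit, stood on 2 entries. The entry on chromosome 3 was at 43.4 and 78.0 RPKM (log2 ratio 0.83), and the entry on chromosome 19 was at 64.5 and 129 RPKM (log2 ratio 0.99). Both RPSA entries had similar ratios, but near-identical copies can share reads, so they are not 2 separate readings of the gene.

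Low ratios in the small subunit were small in size. RPS27L, a p53-induced paralog of RPS27, was at 43.9 RPKM in VCaP, compared with 29.2 in VCaP ERα (log2 ratio -0.57). RPS3, which also has a role in DNA repair, was at 122 and 85.8 RPKM (log2 ratio -0.50). RPS9 was at 51.6 and 43.7 RPKM (log2 ratio -0.24). After centring, all 34 small-subunit entries were above 0, these 3 included. After quantile normalization RPS27L and RPS9 were above 0 too, at 0.11 and 0.36, and RPS3 was at -0.07. RPS27, the parent of RPS27L, was at 1.58 and 3.87 RPKM (log2 ratio 0.92), a low value that is uncertain for the reason given next.

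Several entries, RPL9 and RPS27 among them, were far lower than their subunit. Ribosomal protein genes have many near-identical copies, most of them pseudogenes, so such values are uncertain. Reads can be split between or withheld from such copies, and how the counting handled them is not given in the sources used here. RPL7 was at 2.16 RPKM in VCaP against 2.32 in VCaP ERα. RPL21 was at 0.194 and 0.852 RPKM. RPS3A was at 131 and 351 RPKM on chromosome 4 (log2 ratio 1.41) and at 0.114 and 0.983 RPKM on chromosome 18. RPS7 stood on 2 overlapping entries, at 92.6 and 179 RPKM for the longer and at 17.1 and 32.6 RPKM for the shorter, with log2 ratios of 0.95 and 0.89. In all, 8 entries averaged below 5 RPKM, and none of the symbols on more than 1 entry differed in sign. Leaving out those 8 left 19 entries above 1 and 3 below -1.

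The chromosomal context of RPL13 and RPL8 led to the same reading for all abundant members, chosen after the data had been seen. Each entry was set against the 10 nearest other entries on either side that reached 1 RPKM in each library. The median log2 ratio of the surroundings had itself a median of -0.50 over the 60 entries and ranged from -3.09 (RPL13) to 0.95 (RPL37). The ribosomal protein entry lay above the median of its surroundings in 57 of 60 cases, by a median of 1.23. Centring alone also left 57 of the 60 above 0, with a median of 1.19, against 340 of the 678 other abundant entries. The count thus does not separate the local surroundings from the shift between the libraries. No count against surroundings is given here for the other abundant entries as a set. Member and surroundings correlated with Pearson's r = 0.50 and Spearman's rho = 0.34 over the 60 entries, and with 0.29 and 0.28 over the 58 left without RPL13 and RPL8. These points share the same pair of libraries, and neighbouring members can share surroundings, as RPL19 and RPL23 do. RPS16 had surroundings at -1.07 and RPL22 at -0.74, both far below the gene itself.

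**Figure D3:**
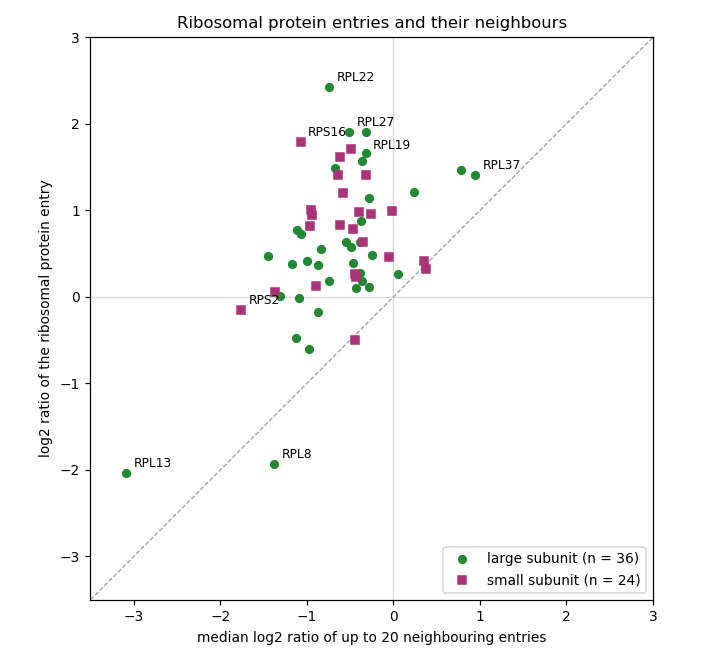
Log2 ratio of each of the 60 ribosomal protein entries averaging at least 50 RPKM (vertical axis) against the median log2 ratio of up to 20 expressed entries around it (horizontal axis), with the dashed line marking equality. The entry lies above the line in 57 of 60 cases; RPL13 has the lowest surroundings, at -3.09, and RPL8 lies below the line.

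Entries of small nucleolar RNAs encoded within these genes were low beside their hosts, except within the low entry RPL21. There SNORD102 was at 0.275 and 2.82 RPKM and SNORA27 at 0 and 1.02 RPKM, against 0.194 and 0.852 RPKM for RPL21. The spans of 24 ribosomal protein entries held 43 snoRNA entries, with a median of 1.92 RPKM in VCaP against 2.59 in VCaP ERα. The highest was SNORD36A within RPL7A in VCaP, at 10.3 RPKM, and SNORD101 within RPS12 in VCaP ERα, at 23.1 RPKM. Of the 43, 31 were higher in VCaP ERα, against 46.6% of all entries, and 7 were listed at 0 in VCaP. Entries listed at 0 were also fewer in VCaP ERα over the whole table, as given above. SNORD101 was at 8.98 RPKM in VCaP, and its host RPS12 was also higher in VCaP ERα (log2 ratio 1.41). SNORD68 within RPL13 was at 5.60 and 0.950 RPKM, lower in VCaP ERα like its host. The 24 hosts had a median log2 ratio of 0.59 with 7 above 1, and the 56 other members 0.53 with 12 above 1, so both kinds of entry had similar ratios.

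Other groups of translation genes had lower medians than the ribosomal proteins. Of 9 entries of elongation factors, which bring tRNA to the ribosome and move it along the mRNA, 2 were higher in VCaP ERα and 3 were below -2, against 37.5% and 21.5% of the entries averaging at least 50 RPKM, as all 9 did. Their median log2 ratio was -0.23, which was -0.17 after quantile normalization and 0.36 after centring. EEF2, the translocation factor, was at 1121 RPKM in VCaP, compared with 158 in VCaP ERα (log2 ratio -2.82). EEF1A2, the tRNA-delivering isoform of muscle, neurons and some tumours, was at 689 and 56.7 RPKM (log2 ratio -3.58), and EEF1D was at 141 and 25.7 RPKM (log2 ratio -2.41). The common isoform EEF1A1 stood on 2 entries, as did EEF1B2 and EEF1G. Near-identical copies can share reads, so these values, and the counts they enter, are uncertain. The EEF1A1 entry on chromosome 6 was at 472 and 484 RPKM, with a log2 ratio of 0.04. The other on chromosome 9 was at 310 and 560 RPKM, with a log2 ratio of 0.85. The surroundings of EEF2, EEF1A2 and EEF1D had medians of -1.41, -1.67 and -1.27, each above the gene itself.

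Among 16 entries of initiation factors and further genes with TOP mRNAs, 9 were higher in VCaP ERα, 3 were above 1 and 1 was below -1. Of the 9754 expressed entries, 29.1% were higher, 7.89% were above 1 and 35.6% were below -1. The list had a median of 0.15, or 0.60 after quantile normalization and 0.74 after centring. The 3 were NAP1L1, a histone chaperone, at 24.0 and 92.5 RPKM (log2 ratio 1.90), NACA, a nascent-chain binding protein, with a log2 ratio of 1.82, and HNRNPA1, a splicing factor, with 1.18. PABPC1, the poly(A)-binding protein, was at 314 and 138 RPKM (log2 ratio -1.18). GNB2L1, which encodes the ribosome-bound scaffold RACK1, was at 829 and 1528 RPKM (log2 ratio 0.88). FAU, whose product includes a small-subunit protein, was at 112 and 189 RPKM (log2 ratio 0.75). GNB2L1 and FAU thus had ratios between 0 and 1, as many members did.

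The factors that build ribosomes and the proteins of the mitochondrial ribosome had counts near those of the expressed entries, of which 29.1% were higher in VCaP ERα, 7.89% were above 1 and 35.6% were below -1. Of 28 ribosome biogenesis entries, 8 were higher in VCaP ERα, 1 was above 1 and 8 were below -1, with a median log2 ratio of -0.45, which was -0.02 after quantile normalization and 0.14 after centring. Of 76 mitochondrial ribosomal protein entries, 26 were higher, 8 were above 1 and 23 were below -1, with a median of -0.47, which turned to 0.19 after quantile normalization and 0.12 after centring. The ribosomal protein entries had 0.80 and 1.15 on those scales. The unscaled medians of both lists were near that of all expressed entries, -0.59. The 4 further symbols with a ribosomal protein name had a median of -0.38, and 3 of the 4 were above 0 after centring. RPL36AL, an intronless copy of RPL36A, was at 253 and 100.3 RPKM (log2 ratio -1.33), and RPL7L1 had a log2 ratio of -0.37. RPS19BP1, which binds RPS19, was at 46.5 and 70.6 RPKM (log2 ratio 0.59), and RPL22L1 is given above.

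The mouse embryonic fibroblasts of the same series, from WT and NEAT1 KO mice of strain C57BL/6 at passages 2 to 3, give the spread of these genes in a second pair of libraries. These were poly-A+ libraries, a different kind, so levels are not set side by side. In the fibroblasts 42 ribosomal protein entries averaged at least 50 RPKM. Their log2 ratio of KO over WT had a median of 0.12, an SD of 0.19 and a range from -0.14 to 0.77, with 0 past 1 in either direction and 6 lower in KO. The 1235 other entries at this level had an SD of 0.40. In both pairs the ribosomal protein ratios were thus less scattered than those of other abundant entries. The other entries could pass the level filter through 1 library alone, which can widen their SD. The VCaP pair was the more scattered for both kinds of entry.

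**Figure D4:**
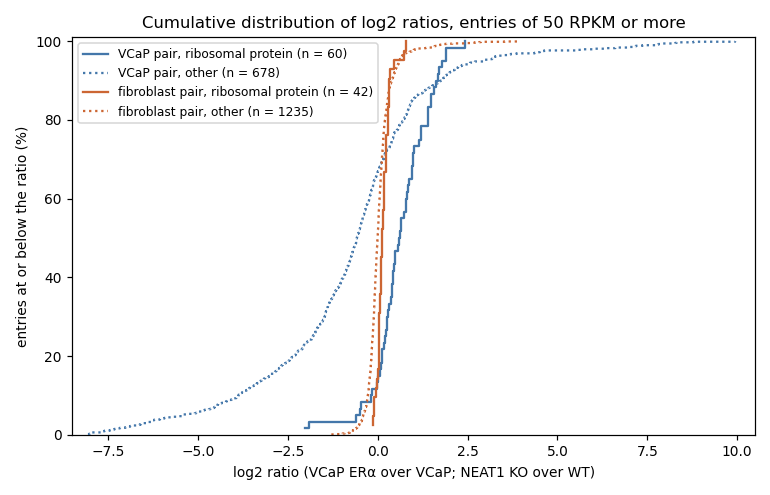
Share of entries (%) at or below each log2 ratio, for entries averaging at least 50 RPKM in the VCaP pair (VCaP ERα over VCaP) and the mouse fibroblast pair (NEAT1 KO over WT), with solid lines for ribosomal protein entries (60 and 42) and dotted lines for other entries (678 and 1235). The solid line of the VCaP pair lies to the right of its dotted line over most of its height, with SDs of 0.81 and 2.52. The latter is 2.09 over the 651 other entries that reached 1 RPKM in each library. In the fibroblast pair the SDs are 0.19 and 0.40.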

How the data were processed

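The authors deposited 1 table of RPKM values per library, made with CASAVA 1.8 per the submitters' processing notes, which name builds hg18 and mm10. The counting tool and gene annotation are not given in the sources used here. RPKM keeps no read depth, so no count interval or detection limit is given. The VCaP tables, 1 library per condition, were joined by entry and read with Python 3.11.15, pandas 2.3.3 and scipy 1.17.1. Log2 ratios used a pseudocount of 1, which understates changes of low entries; scripts were tested on simulated data. Members and lists were chosen with earlier results of these data known. Named were the stalk genes, RPSA, RPS6, RPS27A, RPL22, RPL9, the paralogs with their parents, the 5 highest in each library, the 8 highest and 8 lowest ratios with at least 1 RPKM in both libraries, and members listed at 0 in 1 library. A few genes under this rule and these lists are counted in totals but not reported here. Alternatives changed the pseudocount, low-value filter, scaling, duplicate or composite entries, snoRNA hosts and the denominator. No human sequence was used here.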

Additional observations from a re-analysis of the deposited data

How the results depend on the processing

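No paired analysis was possible because each condition was a single library, and for the same reason no library could be left out. The median log2 ratio kept its sign under all alternatives. Centring raised the medians by construction, to 1.15 for all entries, 1.04 for the large and 1.39 for the small subunit, with 46 entries above 1 (against 24.2% of all entries), 12 above 2 (against 4.77% of all entries) and 1 below -2. Quantile normalization gave 34 above 1 (against 12.7% of all entries), 8 above 2 (against 3.87% of all entries) and 1 below -2. A pseudocount of 0.1 gave 4 above 2, as RPL3L and the RPS3A entry on chromosome 18 joined RPL22 and RPL9. Both added entries were below 1 RPKM in each library, and no share over all entries is given at this pseudocount. Without entries of composite symbols, 1 was above 2 and 1 below -2. Without snoRNA hosts, 12 were above 1 and 1 below -2. Relative to the surrounding entries, chosen after seeing the data, the large-subunit median was 1.07 and the log2 ratio of RPL13 turned to 1.05. Over both subunits 49 were then above 1, 10 above 2, 1 below -1 and 1 below -2. No share over all entries is given on this scale, so these counts are not a result about the members. The cause of the shifts under quantile normalization was not tested. Using 1 entry per symbol, at least 1 RPKM in 1 library or no entries below 5 RPKM moved no count by over 1.5 times, and the shares of the RPKM sum without small RNA entries were 6.99% and 13.6%. Of 33 named genes, quantile normalization moved 3 by more than 0.58 (log2) and the pseudocount 2. With 1 library per condition, depth unknown and no replicate spread, no ratio can be separated from variation between cultures.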

Other observations

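Entries with the symbol of a ribosomal protein pseudogene were mostly low. Of 11 such entries, 8 had a higher RPKM in VCaP ERα, against 46.6% of all entries. Of the 8, RPL13A_6_816, RPL21_17_477, RPL29P2 and RPS26P11 were listed at 0 in VCaP and stayed below 1 RPKM in VCaP ERα. Entries listed at 0 were also fewer in VCaP ERα over all entries, so the count of 8 is not read further. A log2 ratio above 1 was found in 1 entry, RPL13AP3, at 0.561 RPKM in VCaP against 2.89 in VCaP ERα (log2 ratio 1.32). The entry RPL31_1_108 was the only one above 5 RPKM, at 14.2 and 20.7 RPKM (log2 ratio 0.51), while its parent RPL31 was at 27.3 and 78.1 RPKM (log2 ratio 1.48). These genes can share reads with their parents, so both values are uncertain.

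RPS6KB1, which encodes the S6 kinase that phosphorylates RPS6, was at 62.4 RPKM in VCaP against 5.68 in VCaP ERα (log2 ratio -3.25). It lies on chromosome 17, like the ribosomal protein genes RPL19, RPL27 and RPL23 with ratios above 1, and was singled out after its values had been seen. Within ribosome biogenesis, 1 entry was above 1, that of the RNA helicase DDX21 on chromosome 10, with a log2 ratio of 1.40. PES1, a large-subunit assembly factor, was the lowest of that list, at 18.5 and 3.89 RPKM. MYC, a transcription factor known to drive ribosome genes, was at 14.7 and 17.5 RPKM (log2 ratio 0.24).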
